A study of Oryctolagus cuniculus with 6 samples.

Results

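Type IV collagens, laminins, nidogens and perlecan are the proteins that build the basement membrane around each smooth muscle cell of an artery. A set of 10 genes was followed, namely COL4A1, COL4A2, COL4A5, LAMA4, LAMB1, LAMB2, LAMC1, NID1, NID2 and HSPG2, and probes were assigned to them by gene name, gene number, RefSeq accession or full description. Probes were found for 9 of the 10 genes, 19 probes of the 43603 on the array. HSPG2 (perlecan) had no probe that could be assigned to it. The RNA came from female New Zealand White rabbits, from cells of the artery that runs along the brainstem, the basilar artery. In the ligated group both common carotid arteries were tied off to increase flow, and in the sham group the same vessels were exposed but not tied. Both groups were killed on day 5, and the cells were freed from the whole artery by perfusion with elastase (0.4 mg/ml) and collagenase (1 mg/ml) for 45 min, followed by trituration. RNA from each of 3 sham and 3 ligated samples was hybridised to its own one-colour Agilent array. The labels give 3 rabbits a group, no age, and no statement of whether an array holds RNA of 1 rabbit.

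A basement membrane is a thin sheet of extracellular matrix. Laminins are trimers of an alpha, a beta and a gamma chain that anchor to receptors on the cell surface, and collagen IV chains join into triple helices that form a second, covalently linked network. Nidogens and perlecan bridge both networks. In vessels the COL4A1 and COL4A2 chains combine into the most widespread collagen IV, and the alpha 4 chain of laminin is typical of vascular basement membranes.

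Each group occupied a slide of its own (sham slide 1, ligated slide 2), and an effect of the slide cannot be told apart from one of ligation. Between 58.7% and 63.7% of probes were well above background on each array, and no spot was saturated. Signals are given as log2 processed signal less the array's 75th percentile, so 0 is that percentile, and a value is comparable between arrays but not between probes. The sham 2 and sham 3 arrays lay closer to each other than any other arrays. The scaled median absolute deviation of their log2 difference over tested probes was 0.24, against 0.51 to 0.89 for the other combinations. The labelled cell type is smooth muscle. Of its 11 tested markers the 2 brightest were TAGLN, an actin-binding protein, at 6.71 to 8.85 over the 6 arrays, and CALD1, at 6.84 to 8.44. LMOD1 of the same list, named after its values were seen, read -1.26 to 2.63. The fibroblast marker COL1A2 read 7.73 to 9.89. Since levels of different probes are not comparable, these values do not test the cell type. In such bulk RNA, a change in the number of cells of a type and a change in the RNA per cell cannot be told apart.

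The probes that carry the result are 60-base oligonucleotides, and their letters show which transcripts were read. The probes for COL4A1 and COL4A2 are shown first because these genes encode partner chains and end alike: capitals mark the last 3 bases, TGA, which is a stop codon when it lies in frame. The LAMB2 probe ends in the same letters. The reading frame and the exon of each probe are not given in the sources used here.
COL4A1: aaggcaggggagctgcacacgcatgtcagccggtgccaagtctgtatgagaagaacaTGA
COL4A2: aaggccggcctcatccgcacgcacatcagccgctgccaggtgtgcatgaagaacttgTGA
LAMB2: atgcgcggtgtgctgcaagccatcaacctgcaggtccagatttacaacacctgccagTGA

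Aligned end to end, the COL4A1 and COL4A2 probes carry the same base at 39 of 60 positions, and their longest common run is 7 bases. On the rabbit build oryCun2 the files place them at chr8:111526263-111526322 on the minus strand and chr8:111791401-111791457 on the plus strand. Both genes are neighbours in the RefSeq annotation as well. The LAMB2 probe lies at chr9:16736876-16736932 on the minus strand.

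COL4A5 had 4 probes and they are not independent readings. In 3 of them the same 20 bases recur, marked here in capitals.
COL4A5 A_04_P100577: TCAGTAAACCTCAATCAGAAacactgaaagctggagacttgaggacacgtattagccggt
COL4A5 A_04_P100578: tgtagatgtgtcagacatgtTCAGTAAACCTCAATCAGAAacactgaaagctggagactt
COL4A5 A_04_P100579: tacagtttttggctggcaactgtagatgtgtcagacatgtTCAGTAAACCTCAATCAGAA

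The first of these is placed at chrX:57345354-57346220 on the plus strand, a span longer than the probe itself. LAMB1 (3 probes sharing 20 bases) and LAMA4 (2 probes sharing 15 bases) were tiled in the same way.

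NID1 was read at separate places. Its probes share no tiling, so they are shown side by side, followed by the LAMC1 probe, whose gene was confused with LAMB2 in the array's own descriptions. The descriptions call both LAMB2 probes laminin gamma 1, formerly LAMB2, but the accession they cite belongs to LAMB2 in RefSeq, and another probe carries the gene number of LAMC1.
NID1 A_04_P066397: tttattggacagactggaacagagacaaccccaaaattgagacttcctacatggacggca
NID1 A_04_P070697: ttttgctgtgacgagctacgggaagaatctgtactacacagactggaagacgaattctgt
LAMC1: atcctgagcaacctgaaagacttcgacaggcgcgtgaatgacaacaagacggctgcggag

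The NID1 probes are placed at chr16:32068349-32068408 on the minus strand and chr16:32233937-32234618 on the plus strand. The files give no position for the LAMC1 probe. All sequences are those of the array files.

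In the ligated arteries 6 of the 9 measured genes were higher and none was lower: COL4A1, COL4A2, COL4A5, LAMB1, NID1 and NID2. LAMA4, LAMB2 and LAMC1 did not pass the test. Of all 7552 genes tested, 6.22% were higher and 2.69% lower at the same threshold (limma, Benjamini-Hochberg adjusted p under 0.05 over 27413 probes). The median change of the 9 genes was 1.16 on the log2 scale, ligated minus sham, and that of all genes was 0.0065. By probe, 12 of the 18 tested ones were higher, against 5.71% of all probes. These probes are not all independent readings, since several of COL4A5, LAMB1 and LAMA4 share bases. In the same 6 genes every ligated array lay above every sham array, a pattern seen in 17.9% of all genes. The count rests on few arrays. It was 0 of 9 without sham 2, without sham 3 or without ligated 2. It was 2 without ligated 1, 4 without ligated 3 and 5 without sham 1. At an unadjusted p under 0.05 (limma), 6 or 7 of the 9 were higher in each of these fits. The share of all genes was not taken there, and 5125 to 8197 of the 27413 probes had such a p in either direction. In the fit of all 6 arrays 6 of the 9 were higher at an unadjusted p under 0.05, against 15.4% of all genes. The count at the adjusted threshold was also 0 with sham 2 and sham 3 averaged and with normexp background correction. It was 0 with scan day as a block, but sham 3 was the only array of its scan day. That fit is therefore the same as the one without sham 3 and is no further check. With normexp after leaving out high-background spots (25 to 84 per array) it was 6.

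**Figure D1:**
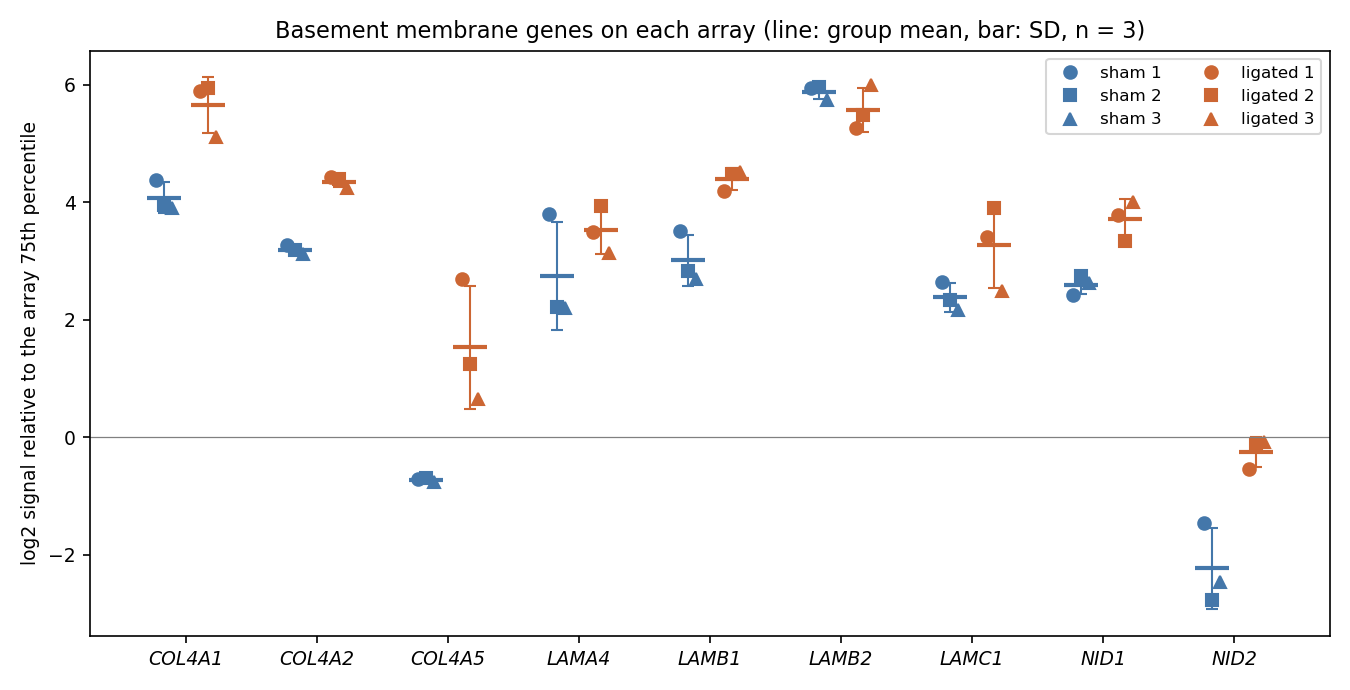
Log2 processed signal less the array's 75th percentile (y axis) of 9 basement membrane genes (x axis), 1 point per array, with the mean and SD of 3 sham and 3 ligated arrays. Ligated points stand clear above sham points in 6 genes, and the groups overlap in LAMA4, LAMB2 and LAMC1.

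COL4A1 encodes the chain present in nearly every basement membrane. Its probe read 4.38, 3.95 and 3.90 in sham and 5.90, 5.95 and 5.10 in ligated samples. The groups did not overlap, and the lowest ligated array was ligated 3. The level was 2.97-fold higher in ligated arteries, a log2 change of 1.57 ± 0.29 (SE, n = 3 and 3, limma adjusted p = 0.0265). COL4A2, which encodes its partner chain, read 3.27, 3.19 and 3.11 in sham and 4.42, 4.39 and 4.24 in ligated samples. Its arrays spread by less than 0.19 within either group (0.16 in sham and 0.18 in ligated samples), the tightest readings of the ligated group among the 9 genes. The change was 1.16 ± 0.17, or 2.23-fold (adjusted p = 0.0138).

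COL4A5, an X-linked chain best known from Alport syndrome, was dim and even in sham samples and very uneven in ligated ones. Its probe read -0.71, -0.70 and -0.77 in sham and 2.69, 1.24 and 0.65 in ligated samples. All ligated arrays were above all sham arrays, and ligated 1 stood well above the other two. The change was 2.25 ± 0.50, or 4.77-fold (adjusted p = 0.0434), with a range of 2.04 among the ligated arrays. It was 1.67 without ligated 1 and 1.25 with normexp background correction. All 4 overlapping probes passed the test, with changes from 2.19 to 2.28.

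**Figure D2:**
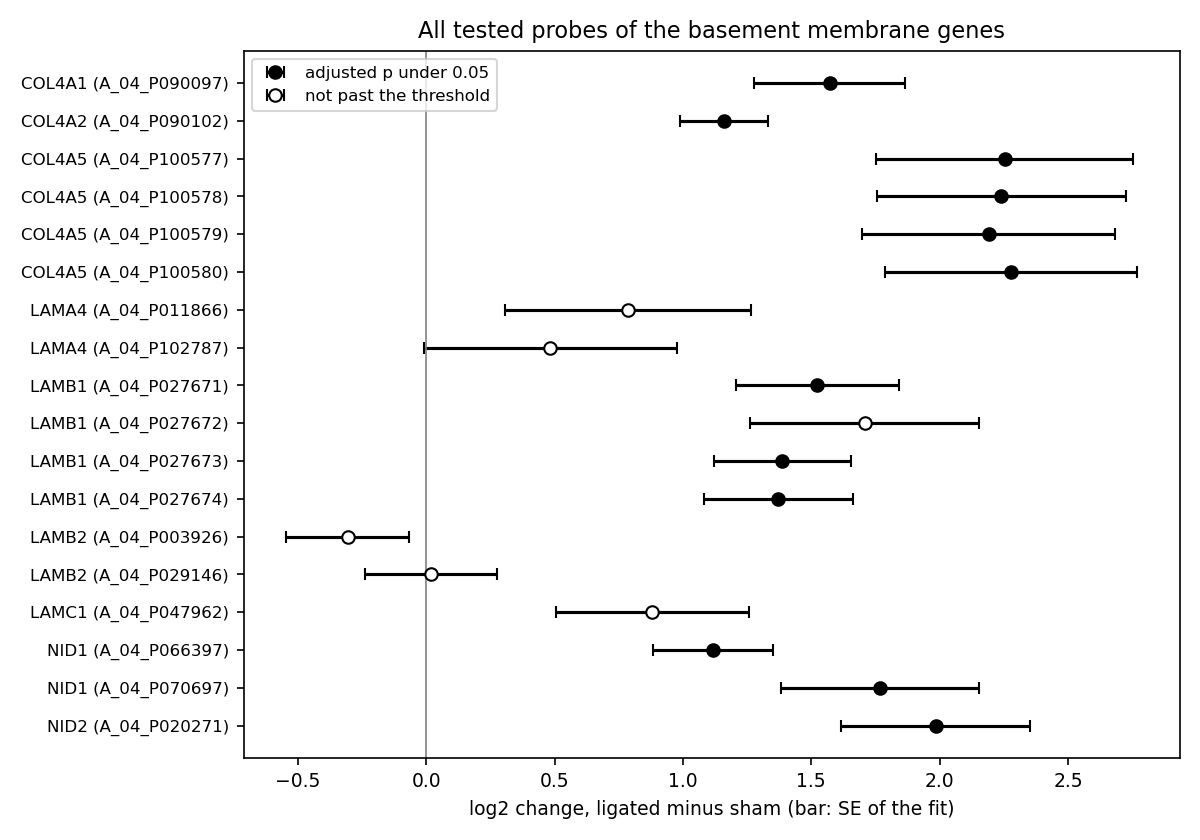
Log2 change, ligated minus sham (x axis), with the standard error of the fit, of each of the 18 tested probes (y axis), filled where the adjusted p was under 0.05. Probes of COL4A5 cluster between 2.19 and 2.28, and both LAMB2 probes sit near or below 0.

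Of the 4 laminin chains only LAMB1 passed the test in the fit of all arrays. LAMB1, the beta 1 chain, read 3.51, 2.83 and 2.68 in sham and 4.19, 4.48 and 4.52 in ligated samples. The groups were separate, and sham 1 was the highest sham array. The change was 1.39 ± 0.27, or 2.62-fold (adjusted p = 0.0292). Of its 4 probes 3 passed, and the fourth, a tiled one, had a change of 1.71 with an adjusted p of 0.0664. The probe outside the tiled 3 had a change of 1.52 ± 0.32 (adjusted p = 0.0362).

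LAMB2, the beta 2 chain, which can take the place of beta 1 in the trimer, read 5.95, 5.95 and 5.73 in sham and 5.25, 5.47 and 5.98 in ligated samples. Here the groups overlapped, with ligated 3 above every sham array. The change was -0.31 ± 0.24 (adjusted p = 0.444), and its direction turned under quantile normalization (0.063) and in the deposited value table (0.063). A second LAMB2 probe, at chr9:16738685-16738824, had a change of 0.02 (adjusted p = 0.970).

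LAMA4, the alpha chain of vascular laminins, read 3.80, 2.22 and 2.19 in sham and 3.50, 3.93 and 3.13 in ligated samples. A single sham array, sham 1, lay within the ligated range, and the other two were below it. The change was 0.79 ± 0.48 (adjusted p = 0.334), and it was 1.32 without sham 1, with an adjusted p of 0.0487. That was the only 1 of the 6 fits leaving out an array in which LAMA4 passed (limma adjusted p up to 0.641). The second LAMA4 probe, without a reading on ligated 2, had a change of 0.48 ± 0.49 (adjusted p = 0.559). LAMC1, the gamma 1 chain that most laminins contain, read 2.65, 2.33 and 2.17 in sham and 3.41, 3.89 and 2.48 in ligated samples. Ligated 3 fell inside the sham range. The change was 0.88 ± 0.38 (adjusted p = 0.190), and it was 1.27 without ligated 3, with an adjusted p of 0.0455. LAMC1 too passed in only 1 of these 6 fits (limma adjusted p up to 0.415). Of the genes called in the fit of all arrays, LAMB1 and NID2 also passed in only 1 of these fits. COL4A1 and COL4A5 passed in 2, COL4A2 in 3 and NID1 in 0.

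Nidogens link laminin to collagen IV. NID1 read 2.42, 2.74 and 2.62 in sham and 3.78, 3.34 and 4.01 in ligated samples at its brighter probe. No array of one group reached the other, and the change was 1.12 ± 0.23, or 2.17-fold (adjusted p = 0.0372). The second NID1 probe read 0.10, 0.60 and 0.59 in sham and 3.03, 1.89 and 1.69 in ligated samples. Its change was 1.77 ± 0.38 (adjusted p = 0.0412), and ligated 1 was the highest array there but not at the brighter probe. NID1 passed the test in none of the 6 fits that left out an array (adjusted p from 0.0516 to 0.137).

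NID2, the other nidogen, stayed below the 75th percentile of every array. It read -1.46, -2.78 and -2.47 in sham and -0.55, -0.12 and -0.09 in ligated samples. The ligated arrays lay close together and above all sham arrays, of which sham 1 was the highest. The change was 1.98 ± 0.37, or 3.96-fold (adjusted p = 0.0264). Its size moved with the handling of background: it was 1.12 with normexp without high-background spots (adjusted p = 0.0165) and 0.78 with normexp on all spots (adjusted p = 0.789). Another NID2 probe, at chr17:70920682-70920724, was not well above background on any array and was not tested.

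Sham 1 was the highest of the sham arrays in 6 of the 9 genes and sham 3 the lowest in 7. Among ligated arrays, ligated 3 was the lowest in 5 genes and the highest in 4.

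Differences between related members were compared within each array for 5 combinations, each taken relative to its sham mean. LAMB1 minus LAMB2 read 0.43, -0.25 and -0.18 in sham and 1.80, 1.88 and 1.40 in ligated samples. All 3 ligated arrays lay above the sham arrays, by a mean of 1.69, or 3.23-fold in the ratio of both beta chains. The exact two-sided permutation p was 0.1, the smallest that 3 against 3 arrays allow (0.375 adjusted over the 5 combinations). COL4A1 minus COL4A2 differed by 0.41 with an overlap of the groups (SD 0.19 in sham and 0.38 in ligated samples, exact permutation p = 0.2). The groups overlapped also for COL4A1 minus COL4A5 (-0.68, p = 0.3, exact permutation), NID1 minus NID2 (-0.87, p = 0.3, exact permutation) and LAMA4 minus LAMC1 (-0.10, p = 1, exact permutation). With this number of arrays none of these shows that the genes changed alike.

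**Figure D3:**
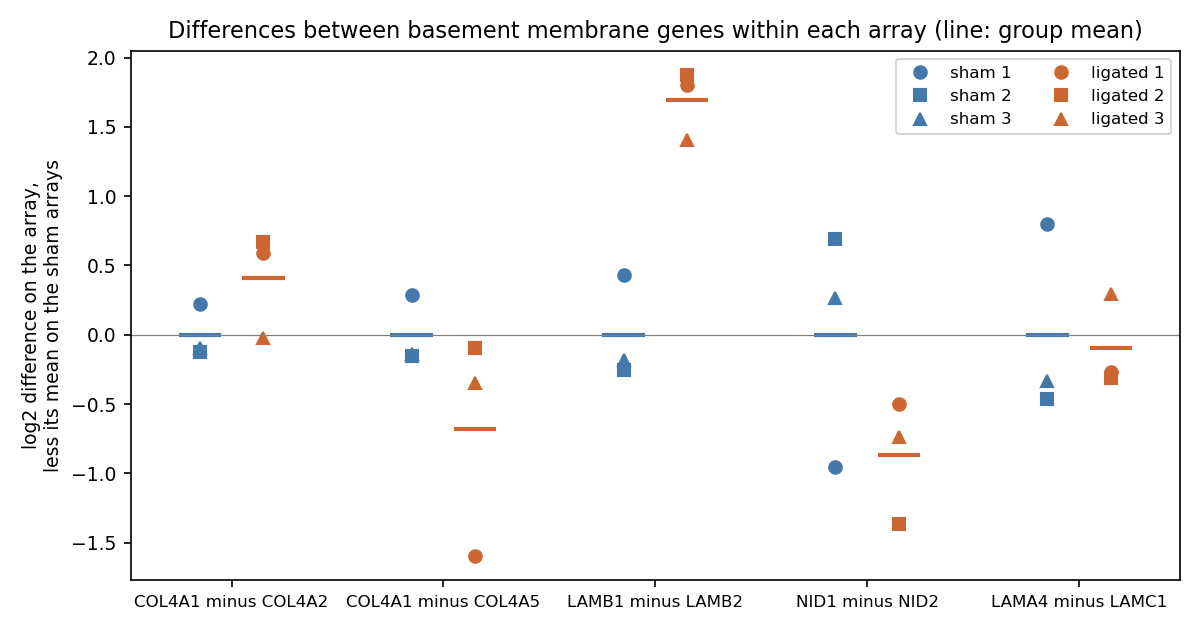
Log2 difference of paired basement membrane genes within each array, less its sham mean (y axis), for 5 combinations (x axis), 1 point per array with the group mean. LAMB1 minus LAMB2 is the only one of the 5 in which the ligated points (1.40 to 1.88) clear the sham points.

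The profile of COL4A1 over the 6 arrays, centred on its own mean, was closest to those of CTSD (a lysosomal protease), APOB (the apolipoprotein of low-density lipoprotein), NEK6 (a mitotic kinase), EPB41L1 and CLMP. Their root mean square distances ran from 0.136 to 0.147 on the log2 scale. By this measure COL4A2 ranked 104, LAMB1 176, LAMC1 207, NID2 553, NID1 806, LAMA4 839, COL4A5 976 and LAMB2 5522 of 7541 genes. All profiles share the same arrays and scaling, so these distances are a description only.

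Other basement membrane genes were looked up from a list of 26, of which 13 were tested. Of these, 5 were higher and 0 lower, against 6.22% and 2.69% of all genes, with a median change of 0.96. LAMA2, the laminin alpha chain of muscle, had a change of 1.27 ± 0.19 (adjusted p = 0.0149). COL15A1, a collagen that sits at the outer face of basement membranes, had a change of 1.13 ± 0.17 (adjusted p = 0.0151), and all 5 of its probes passed. SMOC2, a calcium-binding matrix protein, had a change of 1.77 ± 0.34 (adjusted p = 0.0290). COL4A4 had a change of 0.96 (adjusted p = 0.0323). The fifth was HMCN1, or hemicentin, whose probe was well above background on 0 of 3 sham and 3 of 3 ligated arrays. It was tested only through the group where it is high, so its call is no support for the list, and only a bound can be given, at least 2.23-fold (adjusted p = 0.0442). With the filter on all 6 arrays, 4 genes of the list were higher. The number was 3 with quantile normalization, 1 with the replicate block, 0 with normexp background correction and 6 with array weights.

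The other collagen IV chains were chosen for mention after their values were seen. COL4A6, the neighbour of COL4A5, read -3.40, -3.94 and -3.90 in sham and -0.19, -2.18 and -2.94 in ligated samples, again with ligated 1 highest. Its change was 1.98 ± 0.67 with an adjusted p of 0.121. COL4A3, the neighbour of COL4A4, read -1.34, -1.56 and -1.36 in sham and -1.83, -2.36 and -1.81 in ligated samples. The groups did not overlap, the change was -0.58 ± 0.22 (adjusted p = 0.149), and 2 of its 9 probes passed, within a range of -0.96 to -0.28. The difference between COL4A3 and COL4A4 was not tested.

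Enzymes that fold, modify and link collagen chains were counted next. Of 12 tested, 6 were higher and 0 lower, and all 12 changes were positive (median 0.97). Over all genes 6.22% were higher and 2.69% lower, and 3808 of 7552 changes were positive. PXDN, the peroxidase that forms the sulfilimine cross-links of collagen IV, read -0.58, -0.67 and -0.72 in sham and 1.14, 1.43 and 0.64 in ligated samples. The groups were far apart, with a change of 1.73 ± 0.24, or 3.31-fold (adjusted p = 0.0116). PLOD1, a lysyl hydroxylase, had a change of 1.60 ± 0.25 (adjusted p = 0.0168), and P3H1, a prolyl 3-hydroxylase, one of 1.26 ± 0.23 (adjusted p = 0.0251). SERPINH1, the collagen chaperone HSP47, had a change of 0.96 ± 0.20 (adjusted p = 0.0380), and 1 of its 2 probes passed. PLOD1, P3H1 and SERPINH1 also act on fibrillar collagens.

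Among receptors that hold cells to the basement membrane, 1 of 16 tested was higher and 0 were lower, a share near that of all genes (6.22% higher), and the median change was 0.25. Of the 16 changes 10 were positive, against 3808 of 7552 over all genes, and the lowest was -0.85. The gene that passed was ITGA2, the collagen-binding integrin alpha 2 chain, which read -3.22, -2.11 and -1.98 in sham and -0.49, 1.31 and -0.16 in ligated samples. The lowest ligated array was above the highest sham array. The change was 2.66 ± 0.55, or 6.30-fold (adjusted p = 0.0362), and all 4 probes passed with changes from 1.48 to 4.34. SDC2, a cell-surface heparan sulfate proteoglycan, had a change of 1.10 ± 0.27 (adjusted p = 0.0558). It is named here, after its values were seen, because its 7 probes carry a description that resembles perlecan, "heparan sulfate proteoglycan core protein-like".

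Proteases and inhibitors that act on basement membranes held 5 higher and 0 lower genes among 14 tested, with a median of 0.81 and all 14 changes positive. Over all genes 6.22% were higher and 2.69% lower, and 3808 of 7552 changes were positive. BMP1, which cleaves procollagens and activates lysyl oxidase, had a change of 1.32 ± 0.17 (adjusted p = 0.00920). TIMP1, an inhibitor of metalloproteinases, had one of 1.61 ± 0.22 (adjusted p = 0.0108). MMP9, a gelatinase that cuts collagen IV, read -3.03, -4.51 and -3.70 in sham and -1.41, -0.35 and 0.19 in ligated samples. It was above background on only 2 of the sham arrays, and the change was 3.22 ± 0.52 (adjusted p = 0.0174). MMP2, the other gelatinase, had a change of 1.29 ± 0.21 (adjusted p = 0.0177), and all 6 of its probes passed. TIMP3, which binds to matrix, had a change of 1.06 ± 0.19 (adjusted p = 0.0221). Leaving out 1 array at a time moved the number of higher genes between 0 and 5 for other basement membrane genes, 0 and 4 for folding enzymes, 0 and 2 for receptors and 0 and 7 for proteases and inhibitors. Each of these counts was 0 without sham 2, without sham 3 and, with all arrays, under normexp background correction.

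**Figure D4:**
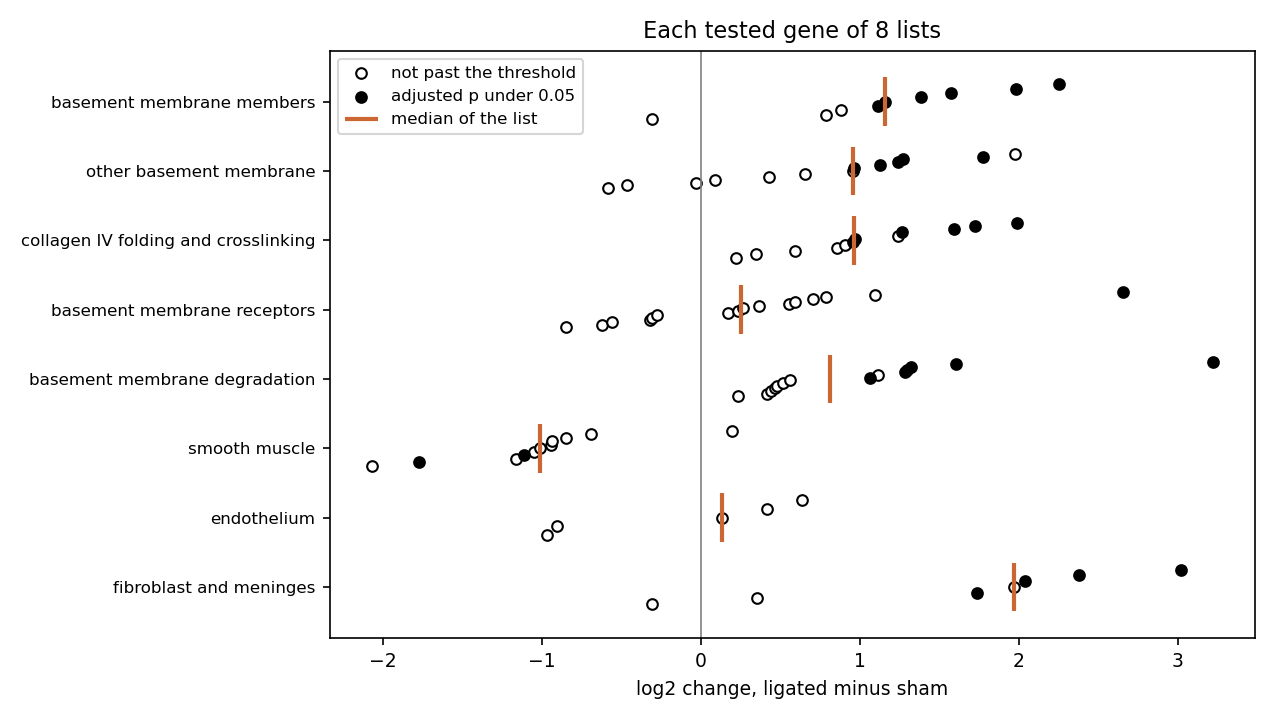
Log2 change, ligated minus sham (x axis), of each tested gene in 8 lists (y axis), filled where the adjusted p was under 0.05, with the median of each list as a vertical bar. The basement membrane members, their enzymes and the proteases lie mostly right of 0, smooth muscle markers mostly left of it.

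Some markers of fibroblasts and of smooth muscle moved as well. Of 7 tested fibroblast and meninges markers, 4 were higher (COL1A1, COL1A2, LUM and SLC6A13) and 0 lower, against 6.22% and 2.69% of all genes. Their median change was 1.97, and their summed level was 8.94 to 9.19 in sham and 10.2 to 10.3 in ligated samples on the log2 scale. COL1A2, a fibrillar collagen chain, had a change of 1.74 ± 0.23 (adjusted p = 0.0102). Its probe was the brightest of the list (7.73 to 8.30 in sham and 9.46 to 9.89 in ligated samples) and weighs most in the sum. OGN, a small proteoglycan of fibroblasts, had one of -0.31 ± 0.24 (adjusted p = 0.446). Of 11 smooth muscle markers, 2 were lower (SMTN, and DES at 1 of its 2 probes) and 0 higher, against 2.69% and 6.22% of all genes. Their median change was -1.01, with summed levels of 10.1 to 10.9 in sham and 8.90 to 10.3 in ligated samples. The part of either list in the basement membrane changes was not tested.

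Endothelial cells also make these proteins. None of the 5 tested endothelial markers passed (median 0.13), and their summed level of 5.70 to 6.71 in sham overlapped that of 5.80 to 7.14 in ligated samples, while KDR and ROBO4 stayed below the level needed for testing. Pericyte markers (0 of 5, median -0.01, summed level 3.66 to 3.85 in sham and 2.64 to 4.77 in ligated samples) and macrophage markers (0 of 6, median 0.58, 3.17 to 4.27 and 3.13 to 5.03) had no passing member. In the pericyte list PDGFRB, a growth factor receptor of mural cells and fibroblasts named after its values were seen, read -1.40, -1.38 and -1.41 in sham and 2.98, 1.08 and 0.08 in ligated samples. The groups did not overlap, ligated 1 was the highest, and the change was 2.78 ± 0.68 (adjusted p = 0.0572). KCNJ8 of the same list, also named later, moved the other way without overlap (-0.68 ± 0.35, adjusted p = 0.266). Of the 5 changes in this list 2 were positive. The part of PDGFRB in the basement membrane changes was not tested. Summed erythroid markers were 4.83 and 4.97 on ligated 1 and ligated 2, against 9.38 on ligated 3 and 7.56 to 8.60 on the sham arrays. Of 7 neuron and glia markers with a probe, 2 were tested and neither passed at its brightest probe. S100B, a calcium-binding protein of glia, was well above background on all 6 arrays, with means of -1.49 in sham and -2.39 in ligated samples and no overlap. Its change was -0.90 ± 0.22 (adjusted p = 0.0546), and 3 of its 5 probes were called lower. SYT1, a synaptic vesicle protein, was well above background on 3 of 3 sham and 0 of 3 ligated arrays at its brightest probe. It was tested only through the group where it is high, and the groups overlapped. Only a bound can be given, at least 1.83-fold higher in sham samples (limma adjusted p = 0.184). Of its 3 tested probes 1 was called lower, a dimmer one, and this call is not read as support. The summed level of this list was -1.25 to -0.90 in sham and -2.27 to -1.89 in ligated samples.

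**Figure D5:**
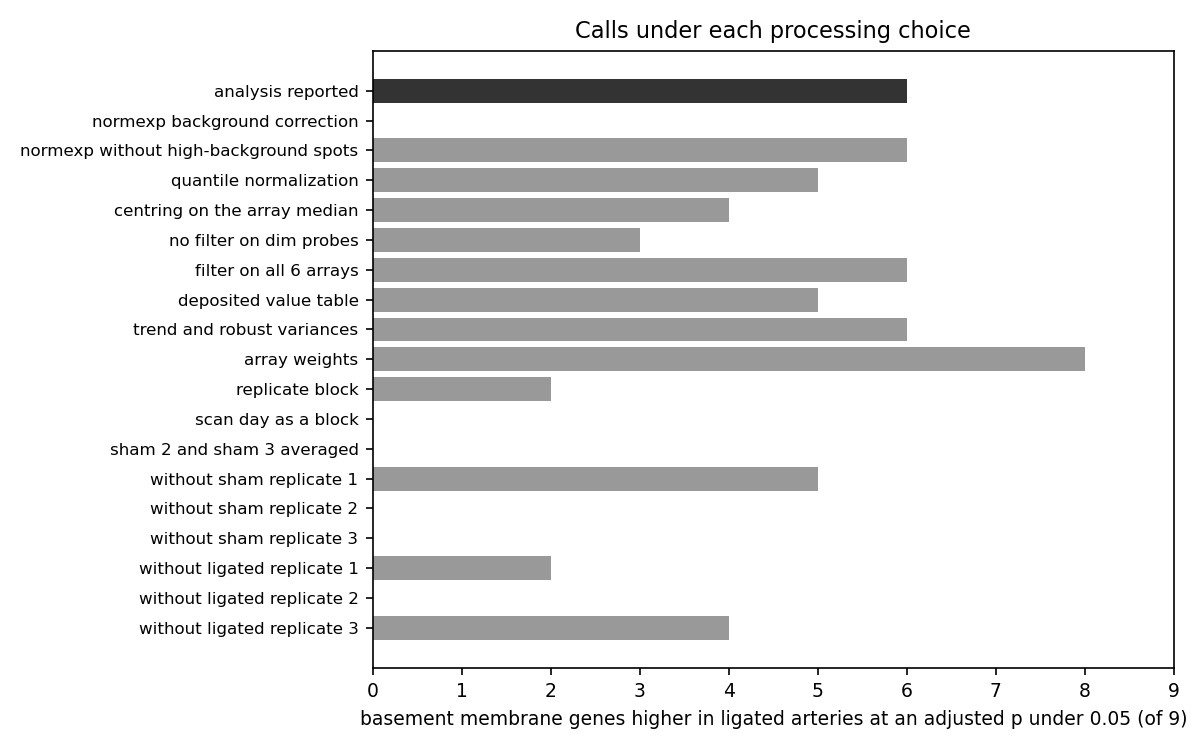
Number of basement membrane genes, of 9, that were higher in ligated arteries at an adjusted p under 0.05 (x axis) under each way of processing the arrays (y axis). The number is 6 in the fit reported here and runs from 0 to 8.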

How the data were processed

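Per the labels' protocols, RNA was amplified and labelled with Cy3, and per the submitters' processing notes scans were read with Agilent Feature Extraction 10.7. Deposited signals are intensity values: per the file headers, the processed signal is background-subtracted and detrended within the array, not scaled between arrays. Spot flags (other, 0 or 1) are deposited beside them. The authors' value table, on the log2 scale, has near-equal array medians (5.05) and correlated at 0.999 or more with log2 processed signal. How it was made is not given in the sources.

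Outlier spots were left out (2 to 19 per array), repeated spots averaged, and each array's 75th percentile subtracted from log2 processed signal. Probes well above background on at least 3 of 6 arrays were tested (27413 of 43603) with limma 3.58.1 in R 4.3.3, two-sided, Benjamini-Hochberg adjusted over all tested probes. The brightest tested probe stands for a gene. An "at least" fold sets the mean of the group above background against the other group. For the other group it takes the higher of the probe's own signal and the lowest signal well above background. Precision is limited by the number of arrays, and p-values measure only the spread between these samples, which may be technical.

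Names came from gene number, accession, symbol or full description through the RefSeq table of assembly mOryCun1.1 (22490 probes with 1 symbol, 21 with several, 21092 with none). LAMA4 was named by its description. Probe positions were copied from the array files (oryCun2). Members, gene lists and tests were chosen with earlier results of these data known. Named were all members, up to 4 passing genes with the smallest p per pathway list, up to 2 of the brightest per marker list where their values are given, the 5 profiles closest to COL4A1, and genes said to be chosen later.

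Same-numbered arrays deviated from their group means with correlations of 0.43, -0.57 and 0.58, so the numbers were not taken as pairs. Alternatives covered background correction, scaling, filter, variance model, blocks, probe rule, naming and each array left out. Sham 3 was scanned on another day than the other 5 arrays.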

Additional observations from a re-analysis of the deposited data

How the results depend on the processing

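The main fit called 2291 probes, 12 member probes and 6 member genes. With normexp background correction these numbers were 0, 0 and 0 (615 probes and 1 member gene had an unadjusted p under 0.05, and all probes shifted by a median of 0.21). Scan day as a block, the same fit as leaving out sham 3, gave 552, 0 and 0. Averaging sham 2 with sham 3 gave 595, 0 and 0. With the replicate block they were 1295, 2 and 2 (COL4A1 and COL4A5). Without a filter on dim probes they were 1524, 3 and 3. Quantile normalization and the deposited value table each left 7 member probes, and array weights called 5983 probes. Centring on the array median called 4 member genes, shifted all probes by -0.19 and moved the share of higher among called probes from 68.3% to 52.2%. Normexp without high-background spots (local background more than 10 above the array median) called 2225 probes, 12 member probes and 6 member genes. The share of higher among called probes was then 57.3%. Leaving out 1 array at a time, probes called ran from 552 to 2268, member probes from 0 to 8 and member genes from 0 to 5. The 6 genes called in the main fit stayed positive in every alternative run. LAMB2 turned to 0.063 under quantile normalization and 0.063 in the value table. LAMC1 was -0.31 when named by the array's descriptions. Under normexp COL4A1 minus COL4A5 was 0.19 and NID1 minus NID2 was 0.11. Alternatives for the lists, the differences between members and the names were added after the data were seen. The cause of these changes was not tested. Signal over background limits NID2, which had 1 probe that was never well above it, and HMCN1 and SYT1, which have only a bound.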

Other observations

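Names matter for reading these arrays. The array describes 5 probes as "laminin B1-like", and their accession belongs to NTN4, a netrin with a laminin-type domain. The brightest had a change of -0.03 (adjusted p = 0.927), and none of the 5 passed, while LAMB1 itself was higher. The 7 probes described as a heparan sulfate proteoglycan core protein belong to SDC2, of which 2 passed, with changes from 0.57 to 1.15. Read by description alone, LAMC1 would be represented by the LAMB2 probe and have a change of -0.31 in place of 0.88.

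The 10 spike-in controls, added in fixed amounts, had a median difference of -0.81 on the log2 scale between ligated and sham arrays after scaling, and 3 of them were lower on every ligated array.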
